A study of Homo sapiens with 12 samples.

Results

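The genes described are 10 enzymes that make fatty acids or activate them: ACLY, ACSS2, ACACA, FASN, ELOVL6, SCD, ELOVL5, FADS1, FADS2 and ACSL3. They were listed by symbol for their place in the pathway, with earlier results of these data known, and all 10 were found among the 26372 gene symbols of the deposited tables. The cells were HCT116, a human colorectal carcinoma line. They carried a knockout of KDM3A (KO), a histone H3 lysine demethylase, or were wild type (WT). Each genotype was sampled in normal medium (mock), in medium without serum (starved), and after fetal bovine serum was given back to cells held 24 h without it (refed). How the knockout was made, whether the line is 1 clone, and the time from serum addition to harvest are not given in the sources used here. The labels list 12 samples, 2 per group, but each of the 6 groups has 1 column of FPKM (fragments per kilobase of transcript scaled to library size). How the 2 samples relate to that column is not stated, so a group is 1 value and no spread between replicates can be given.

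Fatty acid synthesis starts from cytosolic acetyl-CoA, which ACLY cleaves from citrate and ACSS2 makes from acetate. ACACA carboxylates it to malonyl-CoA, the committed step, and FASN condenses these units into palmitate. ELOVL6 lengthens palmitate and SCD puts in the first double bond, while FADS2, ELOVL5 and FADS1 desaturate and lengthen polyunsaturated fatty acids from the diet or medium. ACSL3 couples long-chain fatty acids to coenzyme A before they enter lipids. Many of these genes are known targets of the SREBP transcription factors, which are released from the endoplasmic reticulum when cell sterols are low and are also driven by growth factor and insulin signalling. Serum carries both lipids and growth factors.

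Promoter sequences are shown for 2 enzymes that were higher in starved than in mock cells in both genotypes (SCD, ELOVL6) and for 2 that were lower (ELOVL5, ACSL3), all with a single window in the table. They are the 250 bases before the gene start from RefSeq (GRCh38.p14), 5′ to 3′ on the gene's strand, while the submitters' processing notes name hg19 for the expression data. Windows were found for 9 of the 10 genes, all but FASN. SCD lies on the plus strand at chr10:100346983-100347232, ELOVL6 on the minus strand at chr4:110198616-110198865, ELOVL5 on the minus strand at chr6:53348951-53349200 and ACSL3 on the plus strand at chr2:222860786-222861035. Capitals mark matches on either strand to CCAAT (the NF-Y box, ATTGG when reversed), GGGCGG (the GC box, CCGCCC when reversed) and CACGTG (an E-box); TCACNCCAC, a sterol regulatory element, was also searched.
SCD: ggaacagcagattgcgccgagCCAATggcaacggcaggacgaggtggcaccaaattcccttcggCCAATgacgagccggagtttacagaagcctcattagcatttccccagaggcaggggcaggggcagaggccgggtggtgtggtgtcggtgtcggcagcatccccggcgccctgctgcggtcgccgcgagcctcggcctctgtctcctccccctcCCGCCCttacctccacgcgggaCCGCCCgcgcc
ELOVL6: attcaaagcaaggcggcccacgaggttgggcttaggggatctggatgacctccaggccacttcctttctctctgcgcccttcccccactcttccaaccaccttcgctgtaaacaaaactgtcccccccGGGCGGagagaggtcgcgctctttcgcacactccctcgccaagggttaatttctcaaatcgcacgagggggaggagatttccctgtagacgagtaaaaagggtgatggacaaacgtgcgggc
ELOVL5: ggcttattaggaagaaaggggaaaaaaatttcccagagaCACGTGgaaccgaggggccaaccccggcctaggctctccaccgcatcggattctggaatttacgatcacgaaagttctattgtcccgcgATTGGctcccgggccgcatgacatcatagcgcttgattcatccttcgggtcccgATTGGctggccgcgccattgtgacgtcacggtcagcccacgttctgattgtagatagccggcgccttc
ACSL3: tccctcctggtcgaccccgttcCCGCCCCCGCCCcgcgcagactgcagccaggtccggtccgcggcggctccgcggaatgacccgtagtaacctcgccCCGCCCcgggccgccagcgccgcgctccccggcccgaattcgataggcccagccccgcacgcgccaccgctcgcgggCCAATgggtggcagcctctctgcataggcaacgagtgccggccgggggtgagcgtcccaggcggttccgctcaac
SCD held 2 CCAAT and 2 GGGCGG matches, ELOVL6 held 1 GGGCGG, ELOVL5 held 2 CCAAT and 1 CACGTG, and ACSL3 held 1 CCAAT and 3 GGGCGG, of which 2 abut. The 9 genes had 14 windows in all, of which 8 held CCAAT, 11 held GGGCGG, 1 held CACGTG and 0 held TCACNCCAC. Of all 35116 windows of this length 32% held CCAAT, 42.6% held GGGCGG, 6.34% held CACGTG and 0.883% held TCACNCCAC. The matches describe these letters only, and other forms of a sterol regulatory element were not searched.

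KDM3A itself had 3.15, 3.01 and 3.59 FPKM in the KO states (mock, starved, refed), against 41.3, 17.8 and 19.8 in WT. FPKM summed over all genes to 6.03e+05 to 6.29e+05 in KO, 1.15e+06 in WT mock and 4.81e+05 to 5.51e+05 in the other WT groups. Between 12170 and 12648 genes reached 1 FPKM in a group. Of 12 colorectal epithelial markers 8 were at 1 FPKM or more in every group, with sums of 4959 to 6136 FPKM in KO and 2268 to 2715 in WT, while LGR5, ASCL2 or CEACAM6 were listed at 0 in some groups. WT mock stood apart: all 16 endothelial markers were at 1 FPKM or more there (sum 293.5), against 2 of 16 in each other group. Sums there were 68.9 to 90.3 FPKM in KO and 49.0 to 57.5 in the other WT groups. The 2 were EGFL7 and ESAM. EGFL7 was at 63.8 to 84.3 FPKM in KO, 77.2 in WT mock and 44.18 to 52.55 in the other WT groups. ESAM was at 4.07 to 5.19 FPKM in KO, 14.4 in WT mock and 3.69 in the other WT groups. CDH5, TEK, FLT1, ERG, EMCN or MMRN1 were at 0 in 1 or more KO groups. Adipocyte markers summed to 2.92 to 3.11 FPKM in KO and 2.25 to 4.004 in WT, with ADIPOQ, LPL or FABP4 at 0 in some groups. Fibroblast markers summed to 18.8 to 50.8 FPKM in KO and 20.8 to 32.0 in WT, with 1 of 7 at 1 FPKM in each group. Leukocyte markers summed to 17.6 to 33.3 FPKM in KO and 5.04 to 12.6 in WT, and hepatocyte markers to 1.95 to 2.18 in KO and 1.77 to 2.11 in WT. The part of the endothelial transcripts in the WT mock values was not tested, so results are also given without that group. In such bulk RNA, fewer cells of a type and less RNA per cell cannot be told apart.

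SCD was the most abundant of the 10 transcripts in every group and FADS2 the least. SCD had 214, 314 and 298 FPKM in KO (in the order mock, starved, refed), against 122, 211 and 187 in WT. FASN came next in 5 groups, with 107, 168 and 189 FPKM in the same KO states and 95.1 and 101.8 in WT starved and refed; in WT mock it was at 39.7, close to ACLY at 40.2 and ELOVL5 at 38.3. FADS2 was at 4.94, 6.20 and 6.45 FPKM in KO and 4.17, 3.17 and 3.32 in WT. Together the 10 summed to 514.2, 713.5 and 714.5 FPKM in mock, starved and refed KO cells and to 312.2, 459.5 and 447.6 in WT, and SCD plus FASN made up 62.4% to 68.1% of the sum in KO and 51.7% to 66.7% in WT. Neighbours in the order of levels cannot be told apart by replicate spread, since each value stands alone; ACACA, ELOVL6 and FADS1 lay within 14.1 to 23.1 FPKM of each other in KO and 8.48 to 17.3 in WT. FASN varied most over the 6 groups, by 4.75-fold, and ACLY least, by 1.52-fold.

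**Figure D1:**
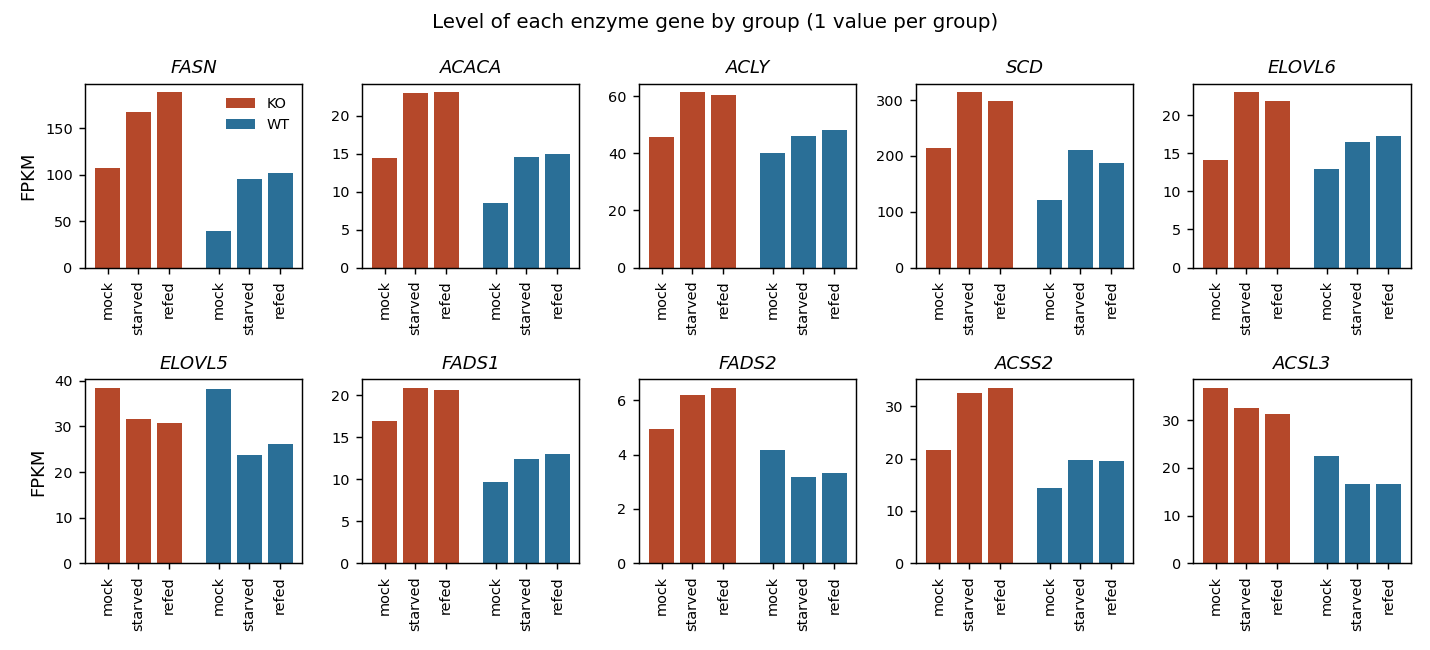
FPKM (vertical axis, starting at 0, own scale per gene) of each enzyme gene in KO (red) and WT (blue) mock, starved and refed cells; each bar is 1 value with no error. FASN spans 39.7 FPKM in WT mock to 189 in KO refed cells, and ELOVL5 and ACSL3 are highest in mock cells of each genotype.

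KO cells were compared with WT cells to ask how the enzymes differ when KDM3A is lost. On the deposited scale all 10 were higher in KO than in WT in each of the 3 states; after median-ratio or upper-quartile rescaling ELOVL5 was lower in KO in mock (-0.04 and -0.08) and refed cells (-0.01 and -0.07), and the other 9 kept their direction. Of the 13456 genes tested (at least 1 FPKM in 1 group) 60.1%, 76.9% and 79.8% were also higher in KO in mock, starved and refed cells and 54.3% in all 3, with all-gene medians of 0.07, 0.19 and 0.22 on the log2 scale. The enzymes lay above that background, with medians of 0.62, 0.66 and 0.65. At 2-fold on log2(FPKM + 1), 1 enzyme (FASN, mock) was higher and 0 were lower, where 2.27%, 2.59% and 3.41% of all genes were 2-fold higher and 3.22%, 1.46% and 1.51% 2-fold lower in the 3 states. On the deposited scale every KO value lay above every WT value in 6 of the 10, as in 25.4% of all genes. These were FASN, SCD, FADS1, FADS2, ACSS2 and ACSL3. The lowest KO and highest WT values were close for FASN (106.8 and 101.8 FPKM), SCD (214.3 and 211.3) and ACSS2 (21.75 and 19.83). Median-ratio rescaling divides KO mock by 1.08 and WT starved and refed by 0.91 and 0.89, so the separation of FASN, SCD and ACSS2 depends on the scale.

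Averaged over the states with limma, 8 of the 10 rose in KO and 0 fell, at an adjusted p (Benjamini-Hochberg over all genes) under 0.05. Of all genes 28.7% rose and 4.58% fell. The enzymes had a median of 0.65 on the log2 scale, or 0.50 above the all-gene median of 0.16. With median-ratio rescaling that median was 0.03 and the enzymes' 0.50, with upper-quartile rescaling -0.01 and 0.46, and 6 enzymes rose under each. The fit has 2 residual degrees of freedom, the interaction of genotype and state, so its p reflects evenness over the states, not replicate error. Without WT mock 9 enzymes and 5039 of the 13456 genes rose, and without KO mock 9 and 5048, beside 3867 genes with all groups. The KO against WT estimates of these 2 fits are the same, because the mock value left over only sets its state. They are therefore not separate checks, and the starved pair and the refed pair behave alike. Without KO starved, KO refed, WT starved or WT refed 0 enzymes were called, with 3 to 16 genes called as risen in all. Each such fit has 1 residual degree of freedom.

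Both acetyl-CoA suppliers rose. ACSS2 had 21.7, 32.6 and 33.5 FPKM in mock, starved and refed KO cells, against 14.4, 19.8 and 19.5 in WT. On the deposited scale the genotypes did not overlap. ACSS2 rose by 0.67 on the log2 scale (SE 0.07, limma adjusted p = 0.0073). The citrate-cleaving ACLY was at 45.9, 61.3 and 60.5 FPKM in KO and 40.2, 46.2 and 48.1 in WT, so that KO mock cells lay within the WT range. ACLY rose by 0.30 (SE 0.07, limma adjusted p = 0.0386), but this call was lost after median-ratio rescaling (0.15, adjusted p = 0.0902), after upper-quartile rescaling (0.10, adjusted p = 0.211) and without the filter on low values (adjusted p = 0.0553). ACSS2 overlaps the gene GGT7 on the other strand in GENCODE v29; GGT7 was lower in KO, at 6.79, 9.41 and 9.66 FPKM against 9.91, 12.9 and 12.5 in WT, and reads over the shared stretch cannot be told apart if strand was not used.

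The carboxylase ACACA and the synthase FASN both rose. FASN had the largest averaged difference of the 10, a log2 difference of 1.03 (SE 0.14, limma adjusted p = 0.0125), above 97.7% of all genes. Its difference was uneven: log2 1.40 in mock, 0.82 in starved and 0.88 in refed cells, or 2.69, 1.77 and 1.85 times WT in FPKM. Without the mock states FASN averaged 0.85. ACACA had 14.4, 23.1 and 23.1 FPKM in mock, starved and refed KO cells, against 8.48, 14.6 and 15.0 in WT, where only KO mock overlapped the WT range. It rose evenly, with log2 0.70, 0.63 and 0.59 in the 3 states (averaged 0.64, SE 0.06, limma adjusted p = 0.00603). FASN exceeded ACACA 7.41, 7.29 and 8.17 times per length in KO mock, starved and refed cells, and 4.68, 6.52 and 6.80 times in WT.

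Of the saturated-chain elongase ELOVL6 and the desaturase SCD, both higher in KO in all 3 states, SCD passed and ELOVL6 narrowly missed the threshold, and the difference between them was not tested. SCD rose by 0.68 on the log2 scale (SE 0.08, limma adjusted p = 0.0105), with log2 ratios of 0.81, 0.57 and 0.67 in mock, starved and refed cells. ELOVL6 was at 14.1, 23.0 and 21.9 FPKM in KO and 13.0, 16.5 and 17.3 in WT, so that KO mock cells lay inside the WT range. Its averaged difference of 0.30 did not pass (SE 0.08, limma adjusted p = 0.0539), though it passed with a pseudocount of 0.1 (0.31, adjusted p = 0.04635) and with only genes at 5 FPKM or more (0.30, adjusted p = 0.0344). SCD exceeded FASN 2.01, 1.87 and 1.58 times in KO mock, starved and refed cells, against 3.07, 2.22 and 1.84 times in WT.

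Among the enzymes of polyunsaturated fatty acids, both desaturases rose and the elongase did not pass. FADS1 had 16.9, 20.8 and 20.6 FPKM in mock, starved and refed KO cells, against 9.72, 12.4 and 12.9 in WT, and had an even log2 ratio of 0.74, 0.71 and 0.63. It rose by 0.69 (SE 0.06, limma adjusted p = 0.00533). FADS2, which acts before FADS1, rose by 0.59 (SE 0.14, limma adjusted p = 0.0365), with log2 ratios of 0.20 in mock, 0.79 in starved and 0.78 in refed cells. The FADS2 call was lost after median-ratio rescaling (0.46, adjusted p = 0.05195), after upper-quartile rescaling (0.42, adjusted p = 0.0591) and without the filter on low values (0.59, adjusted p = 0.0864). In GENCODE v29 FADS2 overlaps FADS1 on the opposite strand and FEN1 on its own strand, to an extent not measured here. FEN1 was at 30.7, 48.2 and 49.7 FPKM in KO and 21.6, 38.8 and 39.3 in WT. The values of FADS1 and FADS2 are therefore uncertain where counting could split such reads. ELOVL5 was at 38.4, 31.7 and 30.7 FPKM in KO and 38.3, 23.8 and 26.2 in WT, equal in mock cells and higher in the other states of KO; its averaged difference was 0.21 (SE 0.09, limma adjusted p = 0.150).

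ACSL3, the activating enzyme, had the second largest difference. Its level was 36.7, 32.6 and 31.3 FPKM in mock, starved and refed KO cells, against 22.5, 16.7 and 16.5 in WT, and even the lowest KO value was above the highest WT value. ACSL3 rose by 0.83 on the log2 scale (SE 0.07, limma adjusted p = 0.00618). Its relatives did not move as one. ACSL1 was at 7.97, 10.1 and 9.74 FPKM in KO against 5.61, 3.96 and 4.28 in WT and rose (0.88, limma adjusted p = 0.0199), while ACSL5, the long-chain synthetase of intestinal mucosa, was at 8.95, 11.1 and 10.6 in KO against 15.3, 26.0 and 25.7 in WT and fell (-1.03, limma adjusted p = 0.00936).

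**Figure D2:**
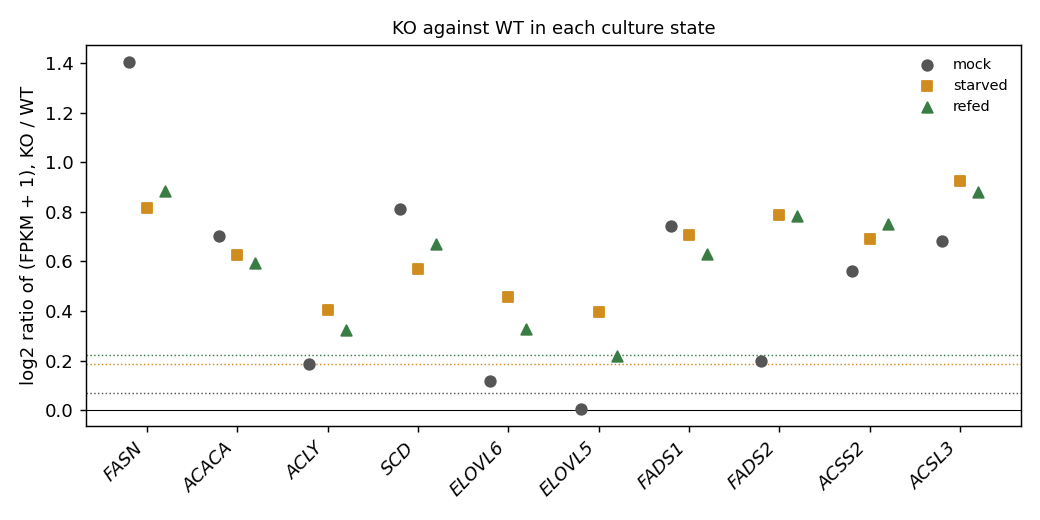
The log2 ratio of FPKM + 1, KO over WT (vertical axis), of each enzyme in mock (circles), starved (squares) and refed (triangles) cells; dotted lines are the medians of all 13456 genes in the same states, and there are no error bars because each group is 1 value. FASN in mock cells stands highest at 1.40 and ELOVL5 in mock cells lowest at 0.01.

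Serum withdrawal was read from starved against mock cells. Averaged over genotypes 6 of the 10 enzymes rose (FASN, ACACA, SCD, ELOVL6, FADS1 and ACSS2), 1 fell (ELOVL5), and ACLY, FADS2 and ACSL3 did not pass, in the limma fit at an adjusted p under 0.05. On the deposited scale the background ran the other way: 5.83% of all genes rose and 19.4% fell, with a median of -0.13. The enzymes had a median of 0.40, or 0.53 above that of all genes. With median-ratio rescaling 1828 genes rose and 2193 fell, with a median of -0.03 beside 0.51 for the enzymes. With upper-quartile rescaling 2252 rose and 1808 fell, with medians of 0.01 and 0.56. Under each rescaling 7 enzymes rose, so the direction of the background depends on the scale. At 2-fold, 0 enzymes were higher in KO and 1 (FASN) in WT, beside 0.951% and 1.03% of all genes, and 0 were 2-fold lower, beside 1.18% and 3.91%. In KO 8 of the 10 and in WT 7 of the 10 had a ratio above 1, against 41.6% and 29% of all genes.

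FASN rose most, with a log2 difference of 0.94 (SE 0.17, limma adjusted p = 0.0269), followed by ACACA (0.68, SE 0.07, limma adjusted p = 0.0174) and SCD (0.67, SE 0.10, limma adjusted p = 0.0210). ACSS2 and ELOVL6 each rose by 0.50 (limma adjusted p = 0.0236 and 0.0344) and FADS1 by 0.30 (limma adjusted p = 0.0420), of which the FADS1 call was lost without a variance trend (adjusted p = 0.0547). Without the filter on low values none of the 6 passed (limma adjusted p of 0.0528 for ACACA to 0.0750 for ELOVL6). ACLY was higher in starved cells of both genotypes, by log2 0.41 in KO and 0.19 in WT (averaged 0.30, limma adjusted p = 0.0706). After median-ratio and upper-quartile rescaling ACLY passed (0.42 and 0.47, adjusted p = 0.0178 and 0.0158). ELOVL5 fell by 0.47 (SE 0.11, limma adjusted p = 0.0479), a call lost after upper-quartile rescaling (-0.30, adjusted p = 0.0598), without the filter (adjusted p = 0.0933) and without a variance trend (adjusted p = 0.0559). ACSL3 averaged -0.29 (SE 0.09, limma adjusted p = 0.0818), with -0.17 in KO and -0.41 in WT.

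In KO only 2 of 16 endothelial markers (EGFL7 and ESAM) reached 1 FPKM in any state. The log2 ratio of starved to mock KO cells was 0.65 for FASN, 0.64 for ACACA, 0.55 for SCD, 0.67 for ELOVL6, 0.56 for ACSS2, 0.28 for FADS1 and -0.27 for ELOVL5. In WT the same ratios were 1.24, 0.72, 0.79, 0.33, 0.43, 0.32 and -0.66. Direction was shared by the genotypes for 9 of the 10 enzymes, and 6 had the higher ratio in KO and 4 in WT. The difference between genotypes has no test, since it is the residual of the fit. The fit without WT mock called 0 enzymes, 5 genes as risen and 18 as fallen, and gave -0.31 for ELOVL5. Without KO mock 4 enzymes rose and 2 fell, beside 634 and 3576 of the 13456 genes. Without any 1 of the other 4 groups 0 enzymes were called.

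FADS2 was the exception in direction: it was higher in starved than in mock KO cells (6.20 and 4.94 FPKM, log2 0.28) and lower in starved than in mock WT cells (3.17 and 4.17 FPKM, log2 -0.31). The ratio of FADS1 to FADS2 was 3.43, 3.36 and 3.19 in KO mock, starved and refed cells, against 2.33, 3.90 and 3.90 in WT. The levels of the elongases lay closer together in starved and refed than in mock cells of both genotypes: ELOVL6 was 0.368, 0.726 and 0.714 of ELOVL5 in KO mock, starved and refed cells and 0.339, 0.692 and 0.658 in WT.

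KO mock cells were also set beside WT starved cells on the deposited scale, a comparison with no test. SCD, ACACA, ACLY and ACSS2 were within 10% of each other (214 and 211, 14.4 and 14.6, 45.9 and 46.2, 21.7 and 19.8 FPKM in KO mock and WT starved cells), and FASN was 1.12 times as high in KO mock cells. ELOVL5, FADS1, FADS2 and ACSL3 were 1.61, 1.37, 1.56 and 2.20 times as high in KO mock cells, and ELOVL6 was lower, at 0.857 of the WT starved level. The median-ratio factors were 1.08 for KO mock and 0.91 for WT starved cells, and the upper-quartile factors 1.11 and 0.88. Dividing by either pair lowers all of these ratios. The near-equal levels and the higher FASN in KO mock cells therefore depend on the scale.

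Refed cells were compared with starved cells to ask what serum changed. No enzyme of the 10 passed in either direction: limma called 0 of 10 risen and 0 fallen, where 104 of all 13456 genes (0.773%) rose, 7 (0.052%) fell and 1292 had an unadjusted p under 0.05. At 2-fold 0 enzymes were higher or lower, beside 1.98% of all genes higher and 0.446% lower in KO and 1.69% higher and 0.684% lower in WT. The ratio was above 1 for 4 of 10 enzymes in KO and 7 of 10 in WT, against 52.2% and 41.1% of all genes. No enzyme moved by more than 0.18 on the log2 scale in either genotype, against 0.67 in KO and 1.24 in WT for the largest starvation response. FASN had 189 FPKM in refed and 168 in starved KO cells and 101.8 and 95.1 in WT (log2 0.17 and 0.10). SCD was slightly lower in refed cells, at 298 and 314 FPKM in KO and 187 and 211 in WT (log2 -0.08 and -0.18). The other 8 lay between -0.07 and 0.05 in KO and between -0.02 and 0.13 in WT. Refed cells kept a difference from mock cells, with a log2 ratio of refed to mock of 0.82 for FASN in KO and 1.34 in WT, and of -0.31 for ELOVL5 in KO and -0.53 in WT.

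**Figure D3:**
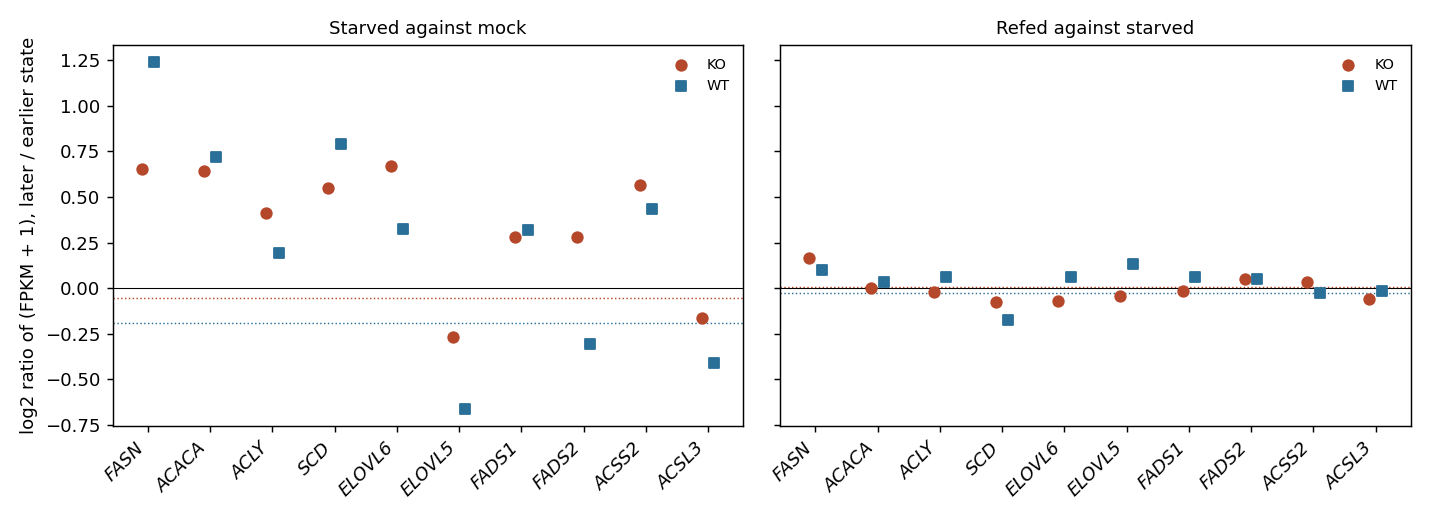
The log2 ratio of FPKM + 1 (vertical axis) of starved over mock cells (left) and refed over starved cells (right) for each enzyme in KO (circles) and WT (squares); dotted lines are the medians of all genes, and each point is 1 value over 1 value. Ratios reach 1.24 (FASN in WT) on the left and stay within 0.18 of 0 on the right.

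Other genes of lipid metabolism were counted from 6 lists, with all shares and medians on the deposited scale. Of 19 other fatty acid synthesis and elongation genes 10 rose in KO (52.6%, beside 28.7% of all genes) and 0 fell, with a median of 0.27 on the log2 scale, beside 0.65 for the 10 enzymes and 0.16 for all genes. ELOVL1, an elongase of very long chains, had 71.0, 56.2 and 66.8 FPKM in mock, starved and refed KO cells, against 48.9, 33.7 and 38.1 in WT, and rose (0.68, limma adjusted p = 0.00969). SLC25A1, which carries citrate out of mitochondria, rose by 0.64 (limma adjusted p = 0.0135) and the NADPH-producing IDH1 by 0.52 (limma adjusted p = 0.0151). In starved cells 2 of this list rose (10.5%, beside 5.83% of all genes) and 5 fell (26.3%, beside 19.4%). MID1IP1, which activates acetyl-CoA carboxylase, rose by 0.50 (limma adjusted p = 0.0345), and OXSM, a mitochondrial synthase, and HACD2 fell (-0.92 and -0.48).

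Of 11 other acyl-CoA and acetyl-CoA synthetases 6 rose (54.5%) and 1 fell (9.09%) in KO, with a median of 0.27, beside 28.7% and 4.58% of all genes. In starved cells 1 rose and 1 fell (9.09% each, beside 5.83% and 19.4%). SLC27A2, a fatty acid transport protein with acyl-CoA synthetase activity, was at 9.68, 9.31 and 9.59 FPKM in KO and 6.55, 6.01 and 6.39 in WT and rose by 0.53 (limma adjusted p = 0.00702). The transcription factors and regulators gave 13 risen (65%, beside 28.7% of all genes) and 0 fallen of 20 in KO, with a median of 0.32. In starved cells 1 of them rose (5%, beside 5.83%) and 5 fell (25%, beside 19.4%). SREBF2, which drives sterol synthesis, was at 65.2, 62.5 and 67.1 FPKM in KO against 29.6, 38.3 and 36.8 in WT (0.88, limma adjusted p = 0.00949). PPARD, a nuclear receptor for fatty acids, was at 34.3, 23.3 and 26.3 FPKM in KO against 14.6, 9.87 and 11.2 in WT (1.17, limma adjusted p = 0.0023). INSIG1, which holds SREBP in the endoplasmic reticulum, rose by 1.44 in KO (limma adjusted p = 0.00846) and INSIG2, its relative, fell by 1.58 in starved cells (limma adjusted p = 0.0170).

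The 23 genes of cholesterol synthesis and uptake had higher medians than the 10 enzymes in both comparisons, 0.88 in KO (20 rose, 0 fell) and 0.78 in starved cells (18 rose, 1 fell). The risen shares were 87.0% and 78.3%, beside 28.7% and 5.83% of all genes. Serum gave 0 risen and 0 fallen there as well, with a median of 0.07. Within that list HMGCS1, which opens the mevalonate pathway, was at 71.3 and 47.1 FPKM in refed and starved KO cells and 32.4 and 19.0 in WT (0.66, limma adjusted p = 0.0608). Genes of glycerolipid assembly and storage gave 4 risen (25%) and 0 fallen of 16 in KO, with a median of 0.16, and 0 risen and 3 fallen (18.8%) in starved cells, shares near the 28.7% and 19.4% of all genes. Those that rose in KO included AGPAT2 (0.60) and DGAT1 (0.51), which builds triglyceride, and the lipid droplet coat genes PLIN2 and PLIN3 fell in starved cells (-0.87 and -0.64). Fatty acid oxidation genes had 7 risen (31.8%) and 0 fallen of 22 in KO, a risen share near the 28.7% of all genes, with a median of 0.05 against 0.16. In starved cells 0 of them rose and 6 fell (27.3%, beside 19.4% of all genes). The largest fall was that of ANGPTL4 (-2.53), which was in the list but is not an oxidation enzyme. ETFDH came next (-0.66). Serum gave 0 called genes by limma in each of these lists.

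**Figure D4:**
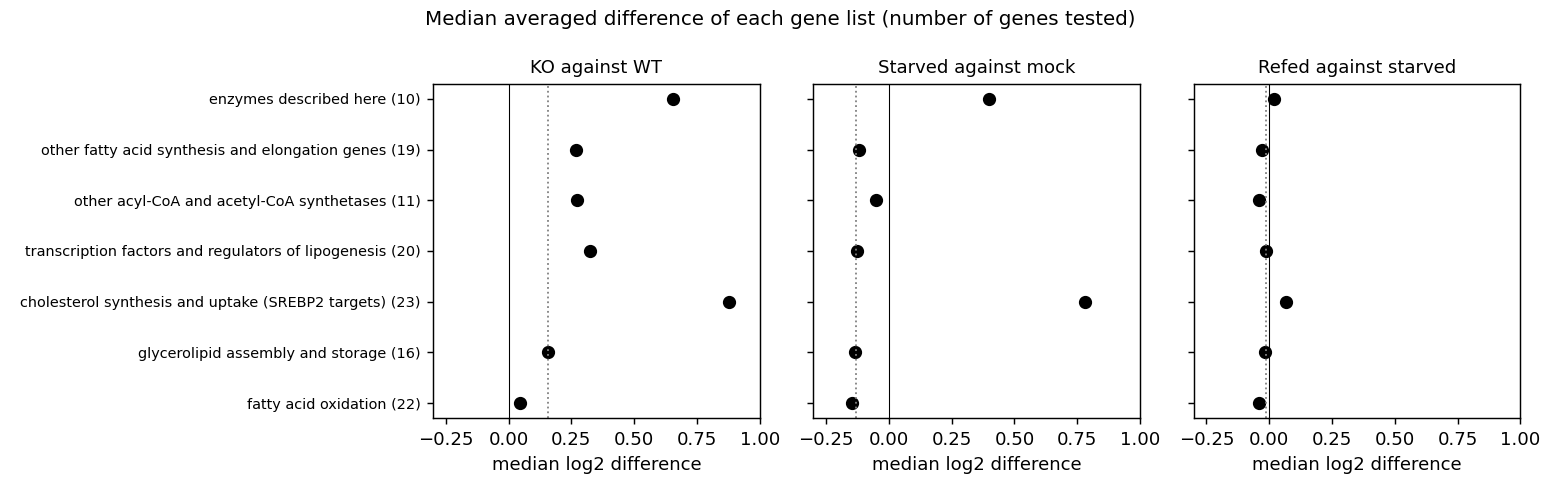
Median averaged log2 difference (horizontal axis) of the 10 enzymes and 6 other lists of lipid genes, with the number of genes tested in brackets, for KO against WT, starved against mock and refed against starved cells; dotted lines are the medians of all 13456 genes and no error is drawn. The 10 enzymes lie second to the cholesterol genes on the left (0.65 and 0.88) and in the middle (0.40 and 0.78).

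The genes whose levels followed the mean of the 10 enzymes most closely over the 6 groups were PCYT2, an enzyme of phosphatidylethanolamine synthesis, SMPDL3B, C19orf48, IFI6 and the sterol desaturase SC5D, with Pearson r of 0.998, 0.997, 0.995, 0.994 and 0.991, as a description over 6 values among 1580 genes at 5 FPKM or more with a 2-fold range. PCYT2 had 17.3, 24.8 and 25.7 FPKM in mock, starved and refed KO cells, against 9.88, 13.7 and 13.4 in WT. For FASN alone the closest were SYNE4, SLC38A5 and the sterol enzymes DHCR7, MVK and MSMO1, with r of 0.992 to 0.985. The 6 values share genotypes and culture states.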

How the data were processed

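RNA selected with oligo-dT beads was sequenced, per the labels' protocols. The deposited values are FPKM computed by the authors per gene symbol, per the file headers. FastQC, cutadapt, TopHat2 and build hg19 are named in the submitters' processing notes, without versions; the program and annotation behind FPKM, and any use of strand, are not given in the sources used here. Depth is unknown. Low values moved in steps (the commonest ratio to WT starved was 0.993 to 1.17), but with more than 1 spacing in most columns, so whole reads were not recovered and no count test was run.

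Each file's group came from its sample's title. Values were used as log2(FPKM + 1) without rescaling, for the 13456 genes that reached 1 FPKM in any group. Single groups were compared as log2 ratios with no test. limma 3.58.1 in R 4.3.3 fitted additive effects of culture state and genotype on the 6 values, with a variance trend, two-sided, and Benjamini-Hochberg adjustment over all genes (threshold 0.05). Differences are KO minus WT, starved minus mock and refed minus starved. The fit was tested on simulated data. Named genes were the 10 enzymes, the up to 4 largest differences per list and comparison, and the 5 genes most like the enzymes; ACSL5, ACSL1 and the others named from lists follow that rule. Of the listed symbols, those under 1 FPKM in every group or not matched by symbol were not analysed here. 1 gene that the rule names is not reported here. The enzymes, lists and tests were chosen with earlier results of these data known. Alternatives were a pseudocount of 0.1, median-ratio and upper-quartile rescaling, no filter, a filter at 5 FPKM, no variance trend, and leaving out each group. Gene overlaps came from GENCODE v29 and promoters from RefSeq, both GRCh38, by symbol. Tables and plots were made with pandas 2.3.3, numpy 2.4.6, matplotlib 3.10.9 and Python 3.11.15.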

Additional observations from a re-analysis of the deposited data

Results flagged for a closer look

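FADS2, the desaturase that opens polyunsaturated fatty acid synthesis, differed in direction between the 2 genotypes. Starved minus mock was 0.28 on the log2 scale in KO and -0.31 in WT, a difference of 0.59. Refed minus mock was 0.33 in KO and -0.26 in WT, a difference of 0.58. These differences were not tested, because each group is 1 value, and both use the WT mock value, where all 16 endothelial markers were at 1 FPKM or more.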

How the results depend on the processing

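With 1 group left out, 1 residual degree of freedom remained. For KO against WT 0 to 9 enzymes rose, beside 8 with all groups, and 3 to 5048 of all genes rose. For starved against mock 0 to 4 enzymes rose and 0 to 2 fell, beside 6 and 1 with all groups. Over all genes 0 to 634 rose and 0 to 3576 fell there. Without the filter on low values 0 enzymes rose and 0 fell in starved cells. The 1 enzyme that fell in starved cells (ELOVL5) became 0 without a variance trend and after upper-quartile rescaling, and upper-quartile rescaling gave 2 enzymes 2-fold higher in starved WT cells in place of 1. FASN, ACACA, SCD, FADS1, ACSS2 and ACSL3 passed for KO against WT under all 6 settings that kept every group, with FASN at 0.83 to 1.05. Rescaling changed the counts over all genes for KO against WT from 3867 risen and 616 fallen to 2051 and 1250 by median ratio and 1576 and 1565 by upper quartile, and 6 of the 10 enzymes rose under each. Over all genes without the filter, limma called 4 risen and 3 fallen in starved cells. No paired analysis was possible because the deposited columns carry no replicate number. The count test on recovered reads was not run. Depth, and so the counting error of FADS2, the lowest of the 10, is unknown.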
